A study of Mus musculus with 12 samples.

Results

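The genes described are 10 that are widely used to mark activated and disease-associated microglia (Apoe, Trem2, Cst7, Lpl, Axl, Spp1, Cd68, Cd86, Gpnmb and Aif1), taken by symbol from a read count table of 21983 genes. RNA-seq was made from brains of wild type C57BL/6 mice aged 6 weeks, with 12 libraries in 3 groups of 4: normal mice (control), mice with a malaria of the brain brought about by experiment (experimental cerebral malaria, ECM), and a group of the latter that received the antimalarial drug artesunate for 4 days (treated ECM). The labels name neither the parasite strain nor the day of infection, and no uninfected mice given artesunate were analysed here. Each library is named by its group and its number in the labels. Nothing in the labels says whether the 4 libraries of a group are separate animals, so the p-values measure the spread between these libraries, which may be technical.

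Microglia are the resident macrophages of the brain. In neurodegeneration and demyelination they can pass from a homeostatic state, marked by genes such as P2ry12 and Tmem119, to a disease-associated state (DAM) with high levels of lipid-handling, lysosomal and phagocytic genes. An early stage of that change (with Apoe and the adaptor gene Tyrobp) is described as independent of the lipid receptor Trem2, and a later one (with Cst7, Lpl, Axl, Spp1 and Itgax) as dependent on it. None of these genes is restricted to microglia: astrocytes make most brain Apoe, and monocytes, border macrophages and dendritic cells express Cd68, Cd86, Aif1, Spp1 and Gpnmb. In RNA of bulk brain tissue, fewer cells of a type and less RNA per cell cannot be told apart.

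The libraries held 13342177 to 18886822 reads assigned to genes. Control 4, ECM 2 and ECM 3 stood apart, with 10.7%, 15.2% and 13.2% of reads from mitochondrial genes against 4.74% to 7.89% in the other 9. The same 3 libraries had the most negative rank correlations between a gene's GC content and its deviation in the library (-0.68, -0.34 and -0.48), while the 4 treated libraries lay between 0.42 and 0.54. The mean level of 6 cerebellar genes was 2.30 to 2.92 on the log2(CPM + 1) scale in control 4, ECM 1 and ECM 3 and at least 4.70 in the others. Markers of brain cells were present in every group: the summed level of 8 neuron markers was 5560 to 8757 CPM (read counts scaled by library size), and that of 12 homeostatic microglia genes was 440 to 1241 CPM, a sum that includes Mef2c, also a neuronal gene.

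Of the 9 genes with reads, 4 were higher in ECM than in control brains and 0 lower: Cst7, Cd86, Cd68 and Aif1 (edgeR, adjusted p below 0.05). Over all 14604 genes tested, 7.31% were called higher and 2.88% lower. In treated ECM against ECM, 3 of the 9 (Cst7, Cd86 and Cd68) were lower and 0 higher, beside 5.59% of all genes called lower and 3.02% called higher. Between treated ECM and control, 0 of the 9 were called, beside 1.97% higher and 0.0548% lower over all genes. At an unadjusted p below 0.05, 2 of the 9 passed edgeR in that comparison, Apoe and Cst7, and DESeq2 called 0 at its adjusted p. The median log2 fold change of the 9 genes was 1.00, -0.74 and 0.22 in the 3 comparisons, against 9.53e-05, -0.01 and 0.01 over all genes tested. Each pair of comparisons shares 1 group, so the values are given side by side and no overlap between comparisons is read.

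Trem2, the lipid-sensing receptor that defines the later DAM stage, was listed at 0 reads in all 12 libraries and could not be tested. The zeros were not limited to this gene. Trem2 lies on chromosome 17 (GRCm38, 48346401 to 48354147, plus strand), inside a stretch of 16 consecutive genes of the count table, from 48036745 to 48539714, that were all at 0. The stretch holds Trem1, Trem3, Treml1, Treml2 and Treml4, which are relatives of Trem2, and also Nfya and Oard1, which many cell types use. Its neighbours on either side, Foxp4 and Lrfn2, had 7045 and 3198 reads summed over the libraries. None of the 4735 stretches of 50 bases in the Trem2 transcript occurs in a transcript of another gene (0), and the same count was 0 for Nfya and Oard1. Over the whole series 3668 of 21951 genes (16.7%) were at 0 in every library, and 26 stretches held at least 16 consecutive genes at 0, the longest with 183. The zero of Trem2 is given as listed, and no limit on its level was computed from it.

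**Figure D1:**
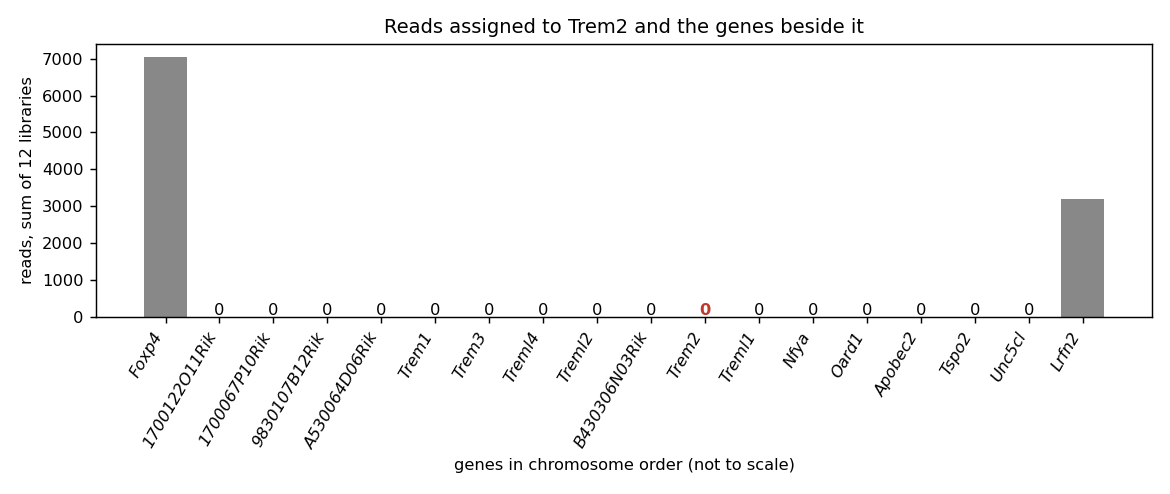
Reads summed over the 12 libraries (vertical axis) for Trem2 and the table genes around it in chromosome order (horizontal axis). All 16 genes from 1700122O11Rik to Unc5cl stand at 0, between Foxp4 with 7045 reads and Lrfn2 with 3198.

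The genes that carry the Trem2 signal inside the cell did have reads. Of 8 tested genes for the Trem2 adaptor, signalling and shedding, 6 rose in ECM and 0 fell, with a median log2 fold change of 1.17 over the list. Tyrobp, which encodes the adaptor DAP12 that couples Trem2 to the kinase Syk, had means of 8.63 CPM in control and 23.3 CPM in ECM, a log2 fold change of 1.43 ± 0.35 (SE; edgeR adjusted p = 0.0194), although its libraries overlapped. Syk rose by 1.22 ± 0.23 (edgeR adjusted p = 0.00376) and Plcg2, the phospholipase downstream of it, by 1.25 ± 0.24 (edgeR adjusted p = 0.00375). The others that rose were the exchange factor gene Vav1 (log2 1.16), the kinase gene Btk (1.19) and the phosphatase gene Inpp5d (0.75), which encodes the inhibitor SHIP1. Adam10 and Adam17, the proteases that shed Trem2 from the cell surface, differed from control by -0.21 and -0.21 and were not called, and the adaptor gene Hcst had too few reads to test. The count of 6 was 2 without control 1, 3 without control 2, control 3 or ECM 4, and 3 with only the 2 groups compared. Without control 4, ECM 2 and ECM 3, 8 genes of the list were called in either direction. Adam10 and Adam17 each passed in some alternative. In treated ECM against ECM, 1 of the 8 fell (Inpp5d, log2 -0.95 ± 0.22, edgeR adjusted p = 0.0197). That count was 0 without ECM 1 or treated ECM 1, 3 or 4 and with the replicate number as a block. It was 2 without control 4 and 3 by DESeq2. Against control, 0 of the 8 were called in treated ECM by edgeR and 0 by DESeq2, with 1 at an unadjusted p below 0.05.

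Cst7, Cd68 and Gpnmb encode proteins of the endosome and lysosome, and Cst7 had the largest fold change of the 9 tested genes in ECM against control. Cst7 encodes cystatin F, an inhibitor of cathepsins that is made by activated microglia and also by T and NK cells. In control libraries 1 to 4 it had 0, 5, 3 and 2 reads, or 0, 0.31, 0.218 and 0.136 CPM; the 0 of control 1 allows up to 0.164 CPM (3 reads). In ECM libraries 1 to 4 its level was 1.37, 3.16, 1.45 and 1.29 CPM. In treated ECM libraries 1 to 4 it was 0.313, 0.402, 0.444 and 0.764 CPM. The 3 groups did not overlap, with every ECM library above every treated library and every treated library above every control, but the gene rested on 10, 101 and 31 reads per group. Treated and control libraries were barely apart: treated ECM 1 had 6 reads (0.313 CPM) and control 2 had 5 (0.31 CPM). Cst7 was higher in ECM than in control by a log2 fold change of 3.43 ± 0.61 (SE; edgeR adjusted p = 0.00223), and this call was kept in all 12 omissions of 1 library (0.00349 to 0.00858). It was lower in treated ECM than in ECM by -1.90 ± 0.53 (edgeR adjusted p = 0.043), a call lost in 8 of 12 omissions (up to 0.13). Those were control 3, ECM 1, 2 and 3 and treated ECM 1, 2, 3 and 4. Treated ECM against control gave 1.53 ± 0.66 (edgeR adjusted p = 0.41).

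Cd68, the lysosomal membrane glycoprotein commonly stained to show phagocytic macrophages, rose in ECM and fell after treatment. Its level was 5.08, 6.82, 6.91 and 6.72 CPM in control libraries 1 to 4 and 10.9, 21.3, 15.3 and 15.5 CPM in ECM libraries 1 to 4. In treated ECM it was 6.93, 9.86, 7.22 and 6.24 CPM. All ECM libraries lay above all others, and treated and control libraries overlapped. Cd68 was 2.47-fold higher in ECM than in control (log2 1.30 ± 0.23, edgeR adjusted p = 0.00209) and 2.08-fold lower in treated ECM than in ECM (log2 -1.06 ± 0.23, edgeR adjusted p = 0.0136). Leaving out treated ECM 1, 3 or 4 took the second value past the threshold (up to 0.0544). Against control the treated group differed by 0.25 ± 0.23 (edgeR adjusted p = 0.638).

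Gpnmb, a transmembrane glycoprotein of lysosomes that is high in lipid-laden macrophages, had the same order of groups without passing the test. It stood at 2.03, 3.04, 4.51 and 4.41 CPM in control libraries 1 to 4, 5.18, 8.54, 5.87 and 8.22 CPM in ECM, and 4.33, 3.42, 2.28 and 4.14 CPM in treated ECM. Every ECM library was above every control and every treated library. The log2 fold change was 1.00 ± 0.30 in ECM against control (edgeR adjusted p = 0.0551), and -0.97 ± 0.30 in treated ECM against ECM (edgeR adjusted p = 0.0638). Without control 4 both were called (0.0434 and 0.0457), and DESeq2 called both (0.018 and 0.0214). Counting the calls and this gene, libraries of ECM and control did not overlap for 5 of the 9 genes, all higher in ECM, where 9.2% of the 13772 genes compared in this way were higher without overlap and 5.29% lower. For treated ECM and ECM it was 4 of the 9, Cst7, Cd86, Cd68 and Gpnmb, all lower in treated ECM (11.3% of all genes were lower and 10.4% higher without overlap). Between treated ECM and control it was 2 of the 9, Cst7 and Apoe, both higher in treated ECM (10.8% higher and 8.1% lower over all genes), which is near the background in number.

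Promoter windows from RefSeq (GRCm38.p6, 250 bases before to 20 after an annotated start) matched 8 of the 10 genes, all but Lpl and Cd86. Those of the 4 matched genes whose ECM libraries all lay above the controls are shown. Of these, Cst7, Cd68 and Aif1 were called in ECM against control and Gpnmb was not. Each is written 5′ to 3′ on the strand of the gene, with capitals for matches, on either strand, to the motifs searched: TGANTCA (AP-1), GAGGAA (the core bound by PU.1, the myeloid master regulator), GAAA followed by GAAA after any 2 bases (interferon-stimulated response element), TTCNNNGAA (gamma-activated site), GGGA followed by TTCC after any 2 bases (NF-kB) and CACGTG (the E-box bound by TFEB and MITF). The windows are chr2:150570165-150570434 for Cst7 and chr6:49036268-49036537 for Gpnmb, both on the plus strand, and chr11:69666151-69666420 for Cd68 and chr17:35176033-35176302 for Aif1, both on the minus strand.
Cst7: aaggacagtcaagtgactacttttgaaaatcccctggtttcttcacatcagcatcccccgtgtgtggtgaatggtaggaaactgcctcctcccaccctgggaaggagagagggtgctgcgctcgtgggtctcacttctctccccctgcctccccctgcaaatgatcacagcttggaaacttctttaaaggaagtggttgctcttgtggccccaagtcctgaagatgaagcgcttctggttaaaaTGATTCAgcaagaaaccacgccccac
Cd68: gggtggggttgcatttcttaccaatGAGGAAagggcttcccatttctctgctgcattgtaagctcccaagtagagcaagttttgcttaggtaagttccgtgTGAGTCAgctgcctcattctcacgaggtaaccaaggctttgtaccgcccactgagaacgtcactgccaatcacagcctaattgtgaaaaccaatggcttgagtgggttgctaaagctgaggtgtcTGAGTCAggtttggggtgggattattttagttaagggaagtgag
Gpnmb: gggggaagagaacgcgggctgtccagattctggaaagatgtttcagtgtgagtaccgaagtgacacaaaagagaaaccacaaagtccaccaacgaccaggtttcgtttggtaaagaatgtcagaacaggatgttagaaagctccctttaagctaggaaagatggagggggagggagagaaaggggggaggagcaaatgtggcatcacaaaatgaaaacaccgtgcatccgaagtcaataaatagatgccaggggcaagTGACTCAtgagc
Aif1: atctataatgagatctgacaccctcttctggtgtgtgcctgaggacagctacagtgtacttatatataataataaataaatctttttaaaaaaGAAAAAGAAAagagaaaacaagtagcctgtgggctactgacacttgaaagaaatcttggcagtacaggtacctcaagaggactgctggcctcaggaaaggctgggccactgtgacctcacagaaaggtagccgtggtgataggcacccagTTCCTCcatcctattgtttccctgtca
AP-1 matches begin 6 bases before the start in Cst7 (TGATTCA), 149 and 24 before it in Cd68 (TGAGTCA at both) and at base 9 after it in Gpnmb (TGACTCA). The Trem2 window held an AP-1 match as well, so 4 of the 8 genes had one. The 8 genes have 11 windows, with 3 for Apoe and 2 for Spp1. An AP-1 match was in 4 of the 11, where 7.23% of all 32851 windows of this length held one. A GAGGAA match was in 7 of the 11, of 6 genes (25.1% of all windows), and a match to the interferon element in 2, of Aif1 and Spp1 (3.21%). The gamma-activated, NF-kB and E-box letters were in 0 of the 11 (7.58%, 1.31% and 6.57% of all windows). Neighbouring windows of a gene overlap in part, a match is a run of letters and not a bound site, and 0 matches says only that the letters are not in these windows.

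The lysosomal proteases around Cst7 moved in the same libraries. Of 10 tested genes for cysteine proteases and other cystatins, 7 rose in ECM and 0 fell, and 5 fell in treated ECM against ECM. Calls in ECM against control numbered 5 without control 1 or control 3 and with only the 2 groups compared, and 8 without ECM 3. Calls in treated ECM against ECM numbered 4 without treated ECM 1, 2, 3 or 4, and 7 without control 4, ECM 2 and ECM 3. Ctss, for the cathepsin that cleaves the invariant chain of class II molecules, rose from a mean of 67.7 to 322 CPM (log2 2.25 ± 0.23, edgeR adjusted p = 2.08e-05) and fell to 97.8 CPM in treated ECM (-1.72 ± 0.22, edgeR adjusted p = 0.000942). Ctsc, which activates granule proteases and is held in check by cystatin F, rose by 2.24 ± 0.26 and fell by 1.26 ± 0.25 on the log2 scale (edgeR adjusted p = 6.27e-05 and 0.0093). Lgmn, the asparaginyl protease that processes cathepsins, and Ctsz rose by 0.86 and 1.19, and in treated ECM fell by 0.87 and 0.95, on the log2 scale. Among the other cystatin genes, Cstb rose by 0.85 ± 0.25 (edgeR adjusted p = 0.0479), a call lost in 10 of 12 omissions. Cst3 and Cst6 differed from control by 0.48 and 0.11 in ECM and were not called. Without ECM 3, Cst3 was called (edgeR adjusted p = 0.0184). Among 7 lysosome regulators and membrane proteins, 2 rose: Grn, for the lysosomal protein progranulin (log2 1.11 ± 0.20, edgeR adjusted p = 0.00267), and Lamp2 (0.84 ± 0.19, edgeR adjusted p = 0.0103). Tfeb, which encodes a transcription factor of lysosome genes, differed by -0.15 and was not called. The count of 2 was 1 with only the 2 groups compared.

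Cd86, a costimulatory ligand on antigen-presenting cells that binds CD28 and CTLA4 on T cells, had the smallest adjusted p of the 9 tested genes in ECM against control and in treated ECM against ECM. Control libraries 1 to 4 had 2.09, 2.23, 2.69 and 3.26 CPM. ECM libraries 1 to 4 had 8.83, 16.4, 11.0 and 8.79 CPM. Treated ECM libraries 1 to 4 had 2.40, 2.48, 2.03 and 2.04 CPM. The lowest ECM library was above the highest of all others (control 4), and treated libraries overlapped the controls. Cd86 was 4.38-fold higher in ECM than in control (log2 2.13 ± 0.26, edgeR adjusted p = 8.45e-05) and 5.01-fold lower in treated ECM than in ECM (-2.33 ± 0.26, edgeR adjusted p = 0.000399). Both calls were kept in all 12 omissions of 1 library (at most 0.000713 and 0.00306). Treated ECM against control gave -0.19 ± 0.26 (edgeR adjusted p = 0.734).

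Of 3 tested partners of Cd86 in costimulation, 1 rose in ECM and fell in treated ECM. It was Icosl, the ligand of ICOS, at 5.20, 18.6 and 6.72 CPM in control, ECM and treated ECM (log2 1.84 ± 0.26 and -1.47 ± 0.25, edgeR adjusted p = 0.000286 and 0.00423). Cd80, the close relative of Cd86, had means of 1.25, 2.20 and 1.36 CPM and was not called (log2 0.81 ± 0.32 in ECM against control, edgeR adjusted p = 0.146). Cd40, the receptor for CD40 ligand, had 0.452, 1.61 and 1.63 CPM and was not called either (1.79 ± 0.58 in ECM against control, edgeR adjusted p = 0.0728). Between treated ECM and ECM its log2 difference was 0.01 ± 0.53 and not called, with an SE too wide to call the levels equal. Cd28 and Ctla4, the receptors on T cells, had too few reads for the edgeR test. In control, ECM and treated ECM their means were 0.0337, 0.378 and 0.0876 CPM for Cd28, and 0, 1.88 and 0.0449 CPM for Ctla4. The count of 1 in ECM against control was 3 without control 2, and DESeq2 called 4 of the 5 genes listed. The count of 1 in treated ECM against ECM was 2 in 9 of 12 omissions, with no filter on low counts, by DESeq2 and without control 4, ECM 2 and ECM 3.

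Axl, a receptor tyrosine kinase that takes up dying cells through bridging ligands, was not called in any comparison. Its levels were 53.6, 58.5, 53.3 and 34.8 CPM in control libraries 1 to 4, 62.7, 67.1, 43.6 and 71.2 CPM in ECM and 56.2, 55.5, 59.1 and 62.5 CPM in treated ECM. The groups overlapped, and the lowest library of the control and ECM groups was control 4 and ECM 3, which stood apart above. The log2 differences were 0.29 ± 0.19, -0.07 ± 0.19 and 0.22 ± 0.19 in the 3 comparisons (edgeR adjusted p = 0.409, 0.846 and 0.61). Tested beside it were 4 genes for related receptors and for bridging ligands of this receptor family, not all of them ligands of Axl itself. Among them, Pros1, for protein S, rose in ECM (16.1 to 37.6 CPM, log2 1.22 ± 0.22, edgeR adjusted p = 0.00223) and fell in treated ECM (21.2 CPM, -0.83 ± 0.22, edgeR adjusted p = 0.033). The fall was lost in 7 of 12 omissions, which left 0 of the 4 called. Gas6, for the other ligand of the family, and the receptor gene Mertk differed from control by 0.13 and 0.17 in ECM, and Tyro3 by -0.56, none of them called.

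Apoe, the main lipid carrier of the brain, was the most abundant of the 10 genes and was highest in the treated group. It stood at 1133, 1267, 1019 and 741 CPM in control libraries 1 to 4, 1075, 898, 868 and 1732 CPM in ECM, and 1755, 1798, 1641 and 1706 CPM in treated ECM. All treated libraries lay above all controls, while ECM 4 lay within the range of the treated group and the other 3 ECM libraries within that of the controls. The log2 fold change was 0.14 ± 0.22 in ECM against control (edgeR adjusted p = 0.788), 0.59 ± 0.22 in treated ECM against ECM (edgeR adjusted p = 0.114) and 0.73 ± 0.22 in treated ECM against control (edgeR adjusted p = 0.182). None was called. Without ECM 4 the latter 2 were called, at 0.88 (edgeR adjusted p = 0.0114) and 0.73 (edgeR adjusted p = 0.0387).

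The level of Apoe moved with the GC slope of the libraries. The GC content of its longest annotated transcript was 59.5%, against a median of 49.8% over expressed genes, taken in the same way. Its lowest levels were in control 4, ECM 3 and ECM 2, which had the most negative slopes, and ECM 4 had the highest slope of all (0.57). With the GC slope as a covariate, a fit added after the data were seen, treated ECM differed from control by 0.32 (edgeR adjusted p = 0.379) and from ECM by 0.22 (edgeR adjusted p = 0.286). Without control 4, ECM 2 and ECM 3 those differences were 0.59 (edgeR adjusted p = 0.0594) and 0.30 (edgeR adjusted p = 0.238). Treated libraries and steep positive slopes coincide, so the part of each in the level of Apoe cannot be told apart. Of 13 Apoe receptors and lipid efflux genes, 0 were called in each of the 3 comparisons by edgeR, with 3, 1 and 3 at an unadjusted p below 0.05. DESeq2 called 1 in treated ECM against ECM, and without control 4, ECM 2 and ECM 3 the count in ECM against control was 3. Among them, the lipid exporter gene Abca1 had a log2 difference of -0.01 in ECM against control, and Clu, another apolipoprotein gene, one of 0.37.

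**Figure D2:**
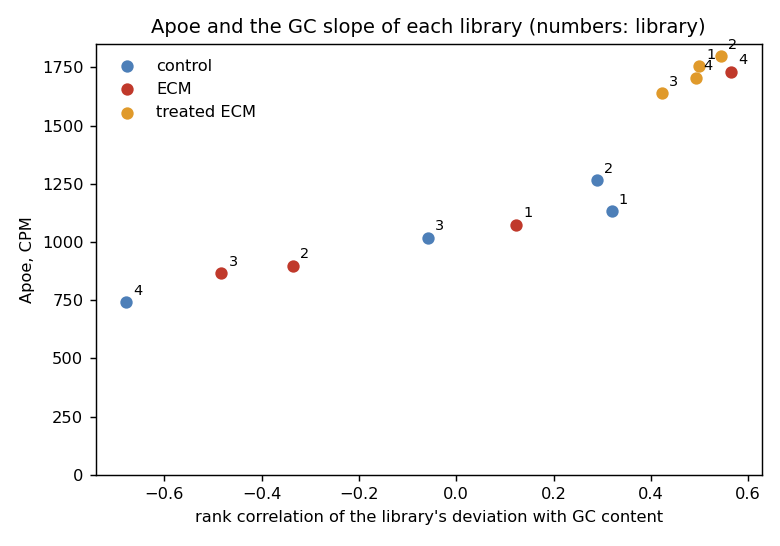
Apoe in CPM (vertical axis, from 0) against the rank correlation between GC content and the deviation of genes in each library (horizontal axis), 1 point per library with its number. The 4 treated libraries and ECM 4 lie at the right with 1641 to 1798 CPM, and control 4, ECM 2 and ECM 3 at the left with 741 to 898 CPM.

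Lpl, the lipase that frees fatty acids from lipoproteins, overlapped between all groups. Control libraries 1 to 4 had 18.8, 18.8, 23.5 and 25.7 CPM, ECM libraries 18.9, 35.1, 23.8 and 15.6 CPM, and treated libraries 17.8, 18.6, 24.8 and 14.3 CPM. ECM 2 was the high library, and without it the difference from control turned from 0.11 ± 0.25 to -0.16, neither called (edgeR adjusted p = 0.863 and 0.741). Of 5 tested partners of Lpl and genes of fatty acid uptake, 2 rose in ECM and 2 fell in treated ECM. Angptl4, a secreted inhibitor of the lipase, did both, with means of 4.36, 18.9 and 6.50 CPM (log2 2.11 ± 0.31 and -1.54 ± 0.30, edgeR adjusted p = 0.000404 and 0.00807). Plin2, a coat protein of lipid droplets, rose from 8.78 to 25.1 CPM (1.52 ± 0.29, edgeR adjusted p = 0.00352). Cd36, a fatty acid and scavenger receptor, fell from 5.07 to 2.04 CPM in treated ECM (-1.31 ± 0.37, edgeR adjusted p = 0.0441). The count of 2 falls was 1 in 8 of 12 omissions and 4 without control 4. Fabp5 and Lmf1 were not called, and Gpihbp1 had too few reads to test.

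Spp1 encodes osteopontin, a secreted ligand of integrins and of CD44, and was not called in any comparison. It had 42.4, 39.7, 26.3 and 33.6 CPM in control libraries 1 to 4, 45.8, 66.1, 46.9 and 23.2 CPM in ECM, and 23.4, 16.4, 25.1 and 44.2 CPM in treated ECM. In ECM, 3 libraries lay above all controls and ECM 4 below them, and in treated ECM, 3 lay below all controls and treated ECM 4 above them. The differences were 0.36 ± 0.32, -0.74 ± 0.33 and -0.38 ± 0.32 (edgeR adjusted p = 0.585, 0.173 and 0.613). Without control 4, ECM 2 and ECM 3 the difference of ECM from control was -0.09. Exons of Spp1 share 309 bases (18.8% of its exon length) with the gene model Gm42793 on the same strand, which is not in the count table. Of 7 receptors, 2 rose in ECM: Cd44 (4.83 to 22.9 CPM, log2 2.24 ± 0.29, edgeR adjusted p = 0.000136), which also fell in treated ECM (8.32 CPM, -1.46 ± 0.28, edgeR adjusted p = 0.00712), and Itga4 (1.07 ± 0.29, edgeR adjusted p = 0.0334). Cd44 is also made by activated astrocytes and T cells, and Itga4 is an integrin of circulating leukocytes. The count of 2 was 1 in 7 of 12 omissions. The other receptor genes, Itgav, Itgb1, Itgb3, Itgb5 and Itga9, differed from control by -0.68 to 0.25.

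Aif1 encodes IBA1, the actin-bundling protein by which microglia are most often stained. Its level was 3.42, 4.09, 2.33 and 6.25 CPM in control libraries 1 to 4, 7.16, 12.7, 9.56 and 11.1 CPM in ECM, and 6.00, 8.92, 4.69 and 5.67 CPM in treated ECM. All ECM libraries were above all controls, and the treated group overlapped both. Aif1 was 2.52-fold higher in ECM than in control (log2 1.33 ± 0.31, edgeR adjusted p = 0.0134), a call lost without control 1 (0.0516). Treated ECM differed from ECM by -0.68 ± 0.30 (edgeR adjusted p = 0.175) and from control by 0.65 ± 0.31 (edgeR adjusted p = 0.446), so neither difference passed.

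**Figure D3:**
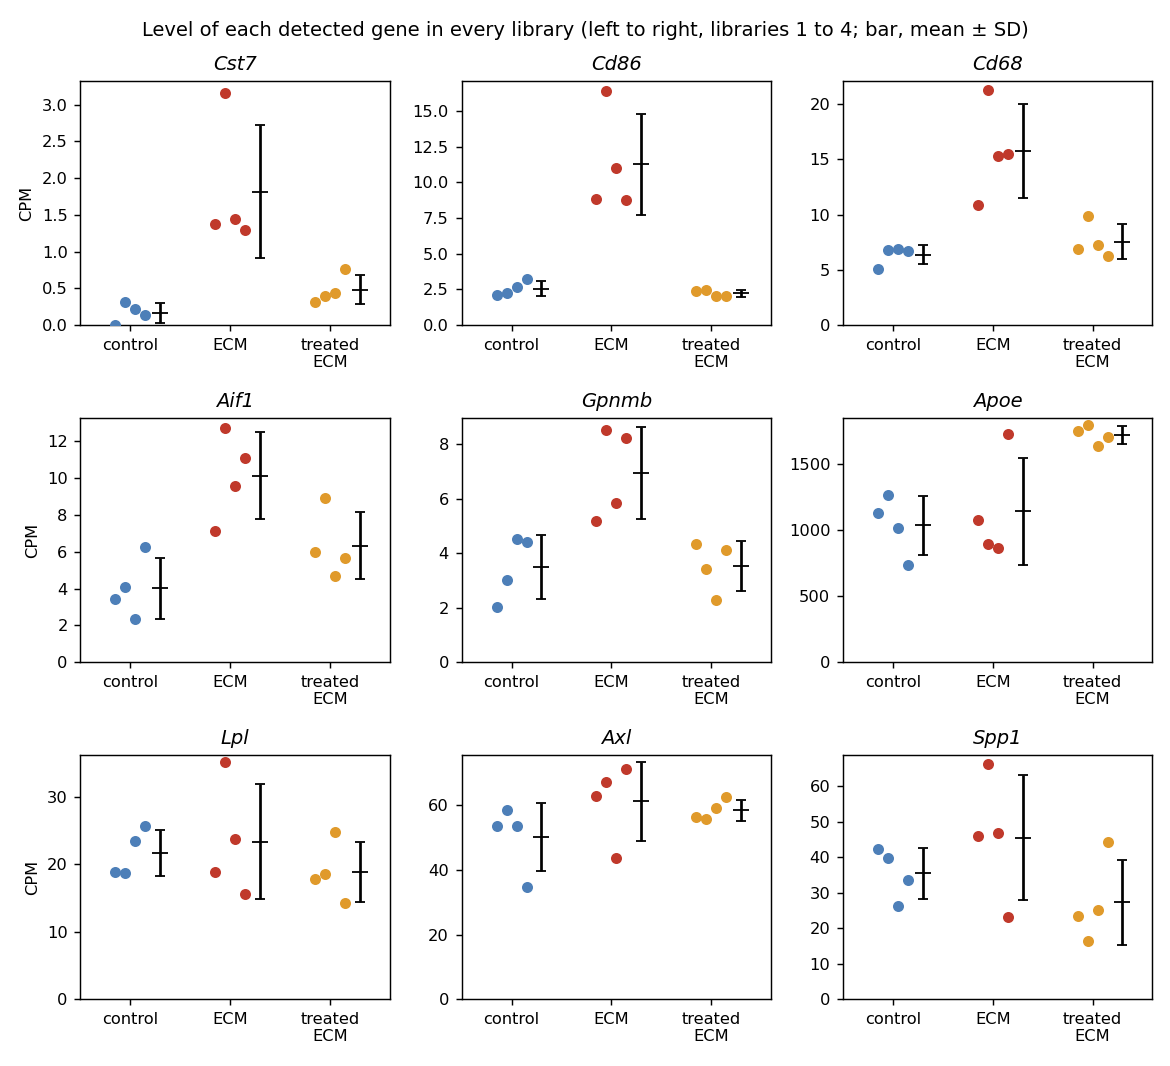
CPM (vertical axes, from 0, each with its own scale) of the 9 genes with reads in the 4 libraries of each group, shown left to right as libraries 1 to 4, with the mean ± SD in black. For Cst7, Cd86, Cd68, Aif1 and Gpnmb every ECM library lies above every control, and Apoe is highest in the treated group (1641 to 1798 CPM).

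**Figure D4:**
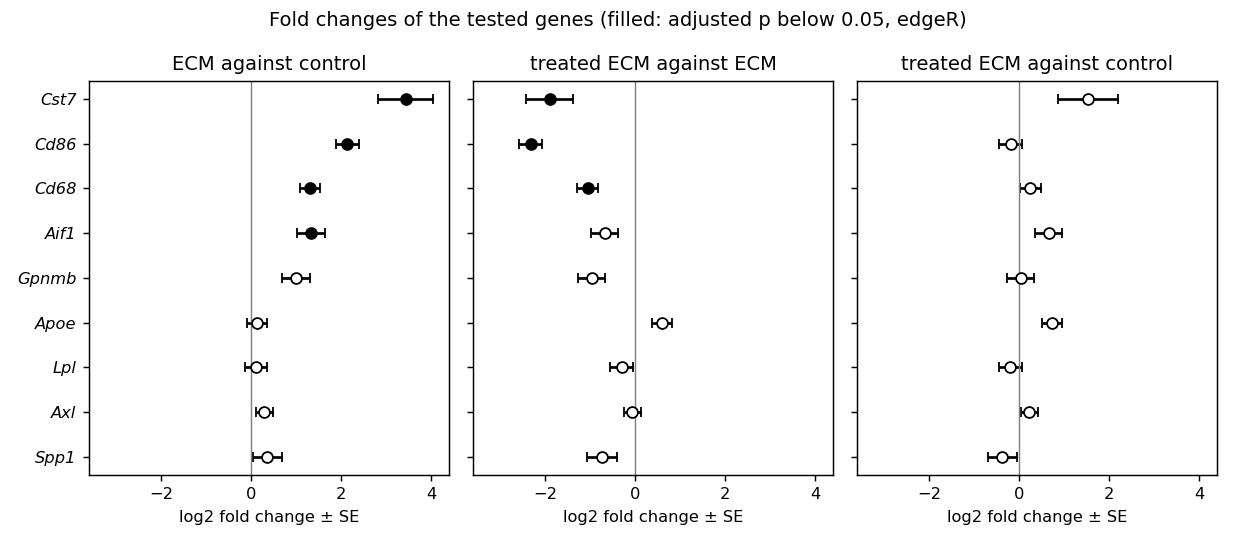
Log2 fold change ± SE (horizontal axes) of the 9 tested genes in the 3 comparisons; filled points passed edgeR at an adjusted p below 0.05. The first panel has 4 filled points, all above 0, the middle panel 3, all below 0, and the last panel 0.

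Within the ECM group 1 library set the top of most ranges. ECM 2 was the highest of the 4 for 7 of the 9 genes, and ECM 4 for the other 2, Apoe and Axl. ECM 4 was the lowest for Cst7, Lpl, Spp1 and Cd86. Without control 4, ECM 2 and ECM 3, the difference of Cst7 in ECM against control was 2.92 (edgeR adjusted p = 0.0177), and in treated ECM against ECM -1.46 (edgeR adjusted p = 0.113), no longer called.

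Levels of different genes were compared only per kilobase of exon (CPM per kb, group medians). In control brains the order was Apoe (503), Spp1 (22.2), Axl (10.6), Cd68 (5.39), Aif1 (2.45), Lpl (2.02), Cd86 (0.672), Gpnmb (0.572) and Cst7 (0.18). Ranges over libraries overlapped between the neighbours Cd68 and Aif1, Aif1 and Lpl, Cd86 and Gpnmb, and Gpnmb and Cst7. In ECM the order changed at the lower end, with Cd86 (2.71) above Lpl (2.04) and Cst7 (1.43) above Gpnmb (1.08), though the ranges of each of these pairs overlapped, as did those of Spp1 and Axl, Axl and Cd68, and Lpl and Cst7. In treated ECM the order was again that of the controls, from Apoe (809) to Cst7 (0.429), and the neighbours that overlapped were Spp1 and Axl, Cd68 and Aif1, Cd86 and Gpnmb, and Gpnmb and Cst7. Apoe was apart from all others in each group, by more than a factor of 10 in these medians.

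The wider DAM signature was called in part. Of 8 other genes of the Trem2-independent stage, 5 rose in ECM and 0 fell, and of 18 tested genes of the Trem2-dependent stage, 8 rose and 0 fell; Lilrb4a was listed at 0. In the first list Lyz2, for lysozyme, rose from 7.98 to 80.7 CPM (log2 3.34 ± 0.26, edgeR adjusted p = 2.11e-06) and B2m, the light chain of class I molecules, from 123 to 883 CPM (2.84 ± 0.37, edgeR adjusted p = 0.000181). H2-D1 rose as well (2.59), although its reads can be shared with near-identical class I genes, as did Tyrobp and Fth1, while Ctsd and Timp2 differed by 0.20 and 0.13. The count of 5 was 3 without control 1, control 3 or ECM 2 and 3 with only the 2 groups compared. In the later-stage list the smallest adjusted p values were those of Ch25h, an oxysterol enzyme (0.376 to 14.2 CPM, log2 5.20 ± 0.52, edgeR adjusted p = 1.84e-05), Cd52 (0.82 to 19.5 CPM, 4.54 ± 0.48, edgeR adjusted p = 3.04e-05), Itgax, which encodes CD11c (0.169 to 4.03 CPM, 4.49 ± 0.52, edgeR adjusted p = 6.27e-05) and the chemokine gene Ccl6 (2.88 ± 0.37, edgeR adjusted p = 0.000139). Serpine2 and Cadm1 had the largest adjusted p values there, with differences of 0.07 and 0.11.

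After treatment 2 of the 8 and 6 of the 18 fell against ECM, and the count of 2 was 4 without control 4. Without treated ECM 1, 2 or 3 the count of 6 was 2, and it was 9 without ECM 4. In treated ECM against control 2 of the 8 and 4 of the 18 were higher by the test. The count of 2 was 1 without control 1, control 3 or treated ECM 2, 3 or 4 and with the replicate number as a block, and H2-D1 was the gene that lost its call in those 5 omissions. Ch25h was 8.25 CPM in treated ECM (log2 4.42 ± 0.51 above control, edgeR adjusted p = 0.000211), and its difference from ECM was not called (-0.78 ± 0.40, edgeR adjusted p = 0.234). Itgax was 1.33 CPM, 2.88 ± 0.53 above control (edgeR adjusted p = 0.00877), and Clec7a, the beta-glucan receptor dectin-1, was 0.724 CPM, 0.68 ± 0.62 above control (edgeR adjusted p = 0.631).

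Homeostatic genes went the other way. Of 12, 5 fell in ECM and 0 rose: Gpr34 (15.7 to 3.99 CPM, log2 -1.99 ± 0.39, edgeR adjusted p = 0.0045), Slc2a5 (-1.08 ± 0.24, edgeR adjusted p = 0.0103), Fcrls (20.9 to 8.65 CPM, -1.27 ± 0.31, edgeR adjusted p = 0.0171), Sall1 (-1.22 ± 0.31, edgeR adjusted p = 0.0235) and P2ry13 (-0.90 ± 0.26, edgeR adjusted p = 0.043). The purinergic receptor gene P2ry12 had means of 56.2 and 25.0 CPM and was not called (-1.17 ± 0.36, edgeR adjusted p = 0.0547), and Tmem119 and Mef2c differed by 0.04 and -0.08. The count of 5 was 3 without control 1, 3 or 4 or ECM 1. In treated ECM against ECM 3 of the 12 rose, among them Fcrls (24.1 CPM, 1.47 ± 0.31, edgeR adjusted p = 0.0117) and Slc2a5 (1.31 ± 0.24, edgeR adjusted p = 0.00624), and against control 0 of the 12 were called by edgeR and 0 by DESeq2, with 3 at an unadjusted p below 0.05. Several of these genes are also expressed outside microglia. The sum of the 12 was 469 to 1241, 468 to 900 and 440 to 619 CPM in control, ECM and treated ECM, so all groups overlapped. Mef2c, a neuronal gene as well, had means of 523.5, 494.8 and 322.9 CPM in control, ECM and treated ECM. Without it, an omission chosen after the sums were seen, the other 11 summed to 237 to 296, 145 to 182 and 195 to 274 CPM, so that every ECM library lay below every control and every treated library.

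Markers of several other cell types moved in the same libraries. Of 8 tested monocyte markers 6 rose in ECM, among them Ly6c2 (0.0289 to 28.7 CPM) and Chil3 (0.017 to 63.4 CPM), and 6 of 7 tested T and NK cell markers rose, among them Gzmb (0.0337 to 69.4 CPM). Treated ECM was higher than control by the test for 5 of the 8 and 5 of the 7, each count 4 to 5 when 1 library was left out. The summed level of 9 monocyte markers was 78.1 to 133 CPM in control, 195 to 313 CPM in ECM and 111 to 168 CPM in treated ECM, with S100a4 at 0 in the control and treated groups. Fn1, which was not called and is also made outside monocytes, had means of 60.5, 71.0 and 97.7 CPM in that sum, and Vcan, also a marker of oligodendrocyte precursors, 37.8 CPM in control and 44.4 CPM in ECM. Neither was called in treated ECM against ECM, but all 8 tested monocyte markers had an unadjusted edgeR p below 0.05 there. Without Fn1 and Vcan, again chosen after the sums were seen, the other 7 markers summed to 3.42 to 4.21, 85.1 to 227 and 15.5 to 28.0 CPM, with no overlap between the groups. The sum of 8 T and NK cell markers was 7.11 to 12.6, 77.9 to 156 and 19.0 to 42.1 CPM, with Cd3g at 0 in controls. That of 6 neutrophil markers was 2.92 to 5.53, 8.98 to 15.7 and 6.31 to 8.59 CPM, with Ly6g at 0 in every group, and that of 7 border macrophage markers was 8.18 to 14.1, 16.9 to 22.9 and 11.9 to 16.2 CPM. Of 7 dendritic cell markers 3 could be tested, and 0 were called in each comparison by edgeR, with 0 at an unadjusted p below 0.05; DESeq2 called 1 in ECM against control. The sum of the 7 was 17.4 to 53.0, 16.8 to 69.3 and 21.5 to 47.4 CPM, with Ccr7 at 0 in controls.

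Vascular and glial markers moved in those libraries as well. Of 6 endothelial markers 3 rose in ECM and 1 fell. The cadherin gene Cdh5 rose from 15.3 to 52.4 CPM (log2 1.77 ± 0.18, edgeR adjusted p = 2.32e-05), the adhesion gene Pecam1 from 30.7 to 86.9 CPM (2.83-fold, edgeR adjusted p = 0.000826) and the tight junction gene Cldn5 by 1.71, while Slco1c1, for a thyroid hormone transporter, fell by 1.44 on the log2 scale. For Cldn5 the ECM and control libraries overlapped, and its call was lost without control 3 (edgeR adjusted p = 0.0517). Against ECM, Cdh5 and Pecam1 fell in treated ECM and Slco1c1 rose (log2 -1.32, -1.35 and 1.54). The endothelial sum was 185 to 226, 315 to 350 and 207 to 260 CPM in control, ECM and treated ECM. Of 9 astrocyte markers 3 rose in ECM (Aldh1l1, Gjb6 and Sox9, log2 1.17, 0.93 and 0.68) and 2 fell in treated ECM against ECM (Gjb6 and Aldh1l1, log2 -0.92 and -0.71). The astrocyte count of 3 was 1 without control 1 or control 3 and 1 with only the 2 groups compared, and the count of 2 was 0 without treated ECM 1, 2 or 4. The astrocyte sum was 5330 to 6357, 5286 to 6473 and 4884 to 5388 CPM. The part of leukocytes, endothelial cells and astrocytes in the levels of the 9 genes and the DAM lists was not tested.

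Genes that microglia share with other macrophages rose too, so the 9 genes were also set against them. Of 12 such genes 8 rose in ECM, led by C1qb, of the complement initiator C1q (34.3 to 133 CPM, log2 1.96 ± 0.18, edgeR adjusted p = 1.21e-05), Ctss, Irf8 and Laptm5, and 5 fell in treated ECM. Itgam, for the integrin chain CD11b, was among those not called in ECM against control (a difference of 0.63). In treated ECM, 3 of the 12 were still above control by the test and 0 below, with 2 to 4 called when 1 library was left out. The median over libraries of the mean log2 CPM of the 12 genes was 4.22 in control, 5.76 in ECM and 5.05 in treated ECM. Relative to that mean, Cst7 was higher in ECM (median -4.93 on the log2 scale) than in control (-5.91), with every ECM library above every control; Cd86 was -2.28 against -2.88, with ranges that overlapped. Apoe, Lpl and Axl were lower relative to it in every ECM library than in every control, with medians of 4.36 against 5.86, -1.19 against 0.20 and 0.16 against 1.51. Spp1 (-0.10 against 0.91) was lower in the same way. Cd68 (-1.74 against -1.50), Aif1 (-2.35 against -2.34) and Gpnmb (-2.88 against -2.36) had overlapping ranges. In treated ECM, Cd86, Lpl and Spp1 lay below every control on this scale (medians -3.85, -0.71 and -0.25). Apoe was back in the control range or above it (5.68). The shared list was itself higher in treated ECM than in control, and Cd86 was not called between those groups. These values have no test, since the list itself moved.

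**Figure D5:**
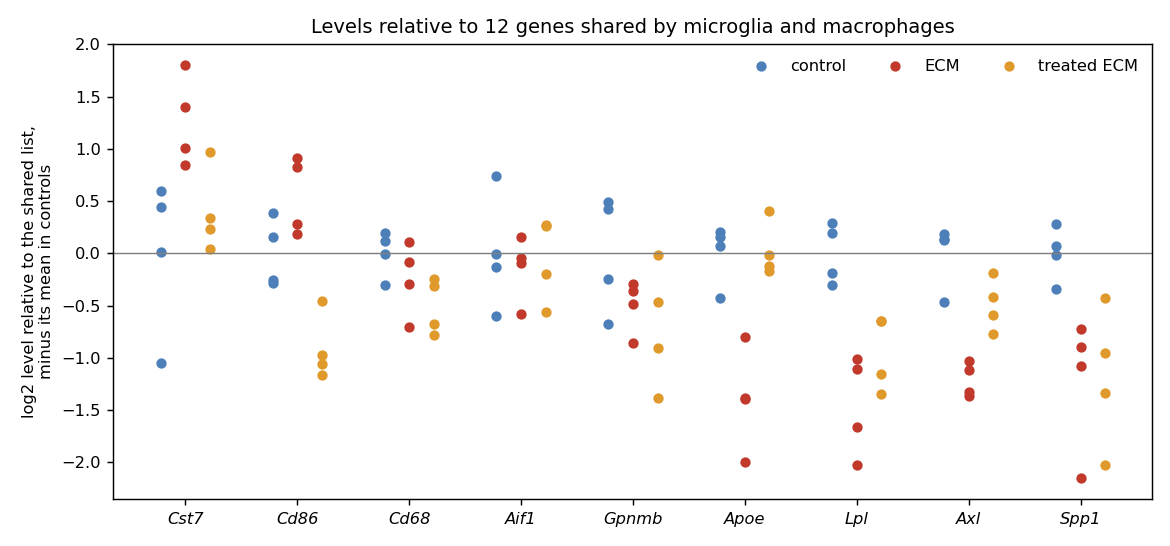
Log2 level of each gene minus the mean log2 level of 12 genes shared by microglia and macrophages in the same library, set to a mean of 0 in controls (vertical axis), 1 point per library and colours for the groups. Cst7 has its ECM libraries above all controls, and Apoe, Lpl, Axl and Spp1 have theirs below all controls.

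For each of the 9 genes, the 2 most similar genes over the 12 libraries were found among 13030 genes by Pearson's r of log2 CPM, as a description. The points share the group structure, and a rise in ECM alone gives a high r. Cd86 was most like Slamf9, a leukocyte receptor gene (r = 0.975, Spearman's rho 0.797), and Apod, an apolipoprotein gene (0.969, rho 0.678), which stood at 245, 952 and 260 CPM in control, ECM and treated ECM. Cst7 was most like Wfdc17 (0.966, rho 0.965) and the lectin receptor gene Clec4a3 (0.964, rho 0.965), which are both myeloid genes. Cd68 was most like Plek (0.958) and Alkbh3 (0.955), Aif1 had Ctsz among its 2 (0.912), and Gpnmb was most like Mcm7 (0.947) and Slc43a3 (0.924). Apoe was most like Lor (0.978) and Ncaph2 (0.972), Axl like Rpl10a (0.977) and Mvb12a (0.974), Lpl like Brdt (0.913) and Tmem87b (0.911), and Spp1 like Tecr (0.87) and Asb8 (0.862). Rpl10a, a ribosomal protein gene at 4.65 to 7.08 CPM, can share reads with processed copies.

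The authors' deposited tables of their comparisons hold only genes with a log2 fold change of at least 1 in size and an unadjusted p of at most 0.05, which is another rule than the adjusted p used here. They held the same 4 genes in ECM against control and the same 3 in treated ECM against ECM, and none of the 10 in treated ECM against control (0). In the authors' deposited table of ECM against control the log2 fold changes were 3.47 for Cst7, 2.12 for Cd86, 1.29 for Cd68 and 1.31 for Aif1, and in that of treated ECM against ECM -1.92, -2.32 and -1.06 for Cst7, Cd86 and Cd68.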

How the data were processed

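Brain total RNA was sequenced after NEBNext Ultra library preparation, per the labels' protocols. Trimmomatic, FastQC, STAR and HTSeq on mm10 are named in the submitters' processing notes; no source used here gives versions or an annotation. The deposited table holds raw read counts. The authors' deposited comparison tables add log2 fold changes, p-values, adjusted p-values, a normalized signal and FPKM, per the file headers, and were used for checks and as quoted.

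In 2212 genes with names of 8 or more characters the table's columns are displaced. The values were put back, but treated ECM 4 differed from the authors' deposited counts in 98 of 107 such genes, so these were fitted with 11 libraries. No gene of the 10 is displaced (0). Left out were 32 unusable names, 26 of them dates.

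Counts were tested with edgeR 4.0.16 (R 4.3.3): TMM, filterByExpr, quasi-likelihood F tests, 1 mean per group over 12 libraries, 3 contrasts, Benjamini-Hochberg over 14604 genes, called at an adjusted p below 0.05. The code was tested on simulated data. CPM uses TMM factors, and exon lengths are from GENCODE M21. SE is the log2 fold change divided by the root of F. Libraries of a group differed by more than sampling noise. Intervals and floors cover counting error only.

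Alternatives were other scalings, no filter, DESeq2 1.42.0, fewer libraries, a replicate block and a GC covariate (added after the data were seen); for list counts of calls the GC covariate was not run. The genes, lists and tests were chosen with earlier results of these data known. Named are the 10 genes, their partner lists, the up to 4 smallest and 2 largest adjusted p values (ECM against control) of other lists, and the 2 most similar genes. Fth1, Clec7a, P2ry12, P2ry13 and Cstb were added after their values were seen. Some genes of this rule are left out of the text. Antisense reads were not separated, as the kit is not described as stranded.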

Additional observations from a re-analysis of the deposited data

Results flagged for a closer look

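In 27 sets of 4 libraries (9 genes in 3 groups), 2 had a library far from the other 3 by Dixon's criterion, and chance flags about 1 in 20. Cst7 in ECM 2 was 3.16 CPM, where the other ECM libraries had 1.29 to 1.45 CPM; the gap was 0.918 of the range of the group. Without ECM 2 the gene kept its call in ECM against control and lost it in treated ECM against ECM. Cd68 in control 1 was 5.08 CPM, below the 6.72 to 6.91 CPM of the other controls, with a gap of 0.896 of the range. Both calls of Cd68 were kept without control 1.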

How the results depend on the processing

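In ECM against control 4 genes were called, and 3 to 5 under every alternative run. In treated ECM against ECM the number was 3, and 1 to 4 when 1 library was left out (1 without treated ECM 1, 3 or 4, 4 without control 4 or ECM 4). In treated ECM against control it was 0, and 0 to 1 when 1 library was left out (1 without ECM 4, Apoe). With only the 2 groups compared it was 1, again Apoe; Cst7 was filtered out of that fit and has no value there. No fold change of the 9 genes that was called turned its direction (0).

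The labels do not say whether replicate numbers pair the samples. Correlations of deviations between libraries of the same number were -0.613 to 0.3, which cannot decide it with 4 libraries per group. With the replicate block 4, 2 and 0 of the 9 genes were called, Cst7 losing its call in treated ECM against ECM (adjusted p = 0.0903), and over all genes 1003, 552 and 220.

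Over all genes edgeR called 1488, 1258 and 296 in the 3 comparisons. DESeq2 called 2117 and 451 in the latter 2, and only the 2 groups compared gave 868 in ECM against control. The GC covariate gave 2708 in ECM against control, and leaving out control 4, ECM 2 and ECM 3 gave 2728, 2237 and 465. Without 1 library the counts ranged from 1060 to 1688, 547 to 2105 and 227 to 325, with 547 to 634 without 1 of the treated libraries and 1980 and 2105 without ECM 4 and control 4. The cause was not tested. Depth limits Cst7 most (0 to 40 reads per library). Lengths bear on the order of levels: by the authors' deposited FPKM, Cd86 and Aif1 stood higher than by the exon lengths used here.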
